A study of Mus musculus with 16 samples.

Results

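The right ventricle of mouse hearts with hypoplastic left heart syndrome (HLHS), a malformation in which the left ventricle, its valves and the ascending aorta stay small, was compared with the right ventricle of littermate controls. The comparison took the 8 right ventricle libraries of 16 in all: 3 from HLHS embryos and 5 from control embryos. The HLHS group held 1 embryo from each of 3 litters, collected at E13.5, E14.5 and E17.5 (E for embryonic day). The control group held 1 littermate of the E13.5 embryo and 2 littermates of each of the others. All embryos were of the C57BL/6 background, each library came from the ventricle of 1 embryo, and no treatment was given. The labels give the phenotype and no genotype, so which alleles the HLHS or the control embryos carried is not given in the sources used here. Each stage was 1 litter, so stage cannot be told apart from litter, and each HLHS embryo was compared with its own littermates.

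Before birth the right ventricle pumps blood both to the lungs and, through the ductus arteriosus, to the body, and where the left ventricle is small the right one carries the systemic flow. Its wall is mostly heart muscle cells, whose sarcomeres, calcium stores and mitochondria mature as birth nears. Fibroblasts, cushion and valve mesenchyme, endocardium and epicardium make the extracellular matrix and many of the secreted signals. The comparison asks how the ventricle that is not hypoplastic differs in these hearts.

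Total counts of the right ventricle libraries ran from 17081273 to 27146143. Levels are given as CPM, read counts mapped to genes and scaled to a common library total, normalised between libraries, with the HLHS libraries in the order E13.5, E14.5, E17.5 and the control libraries in the order E13.5, E14.5, E14.5, E17.5, E17.5. The left ventricle marker Hand1 ran from 2.16 to 6.97 CPM in HLHS and from 2.00 to 6.16 CPM in control right ventricles, while left ventricles held 10.1 to 37.6 CPM in HLHS and 13.9 to 38.3 CPM in control embryos, normalised over all 16 libraries. Shox2, a sinus node marker, was at 0 in all 8 right ventricles. Markers of lung, liver, thymus and skeletal muscle summed to at most 15.4 CPM per list. The control library of E13.5 stood apart from the other controls: its 16 fibroblast markers summed to 3644 CPM, against 5412 to 6705 CPM in the other controls, and its 14 epicardial markers to 152 CPM, against 278 to 322 CPM. It was the only control of E13.5, so among controls this cannot be told apart from stage. The E13.5 HLHS embryo was female and its control male, the E14.5 HLHS embryo was female with 1 female and 1 male control, and the E17.5 HLHS embryo was male with 1 male and 1 female control. Control replicate 4, a male of E17.5, held 887 counts of Xist, the RNA of the inactive X chromosome, against 5 to 30 in the 7 other male libraries and at least 16695 in females, a level that was 3.60% of that in its littermate control.

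In HLHS right ventricles, some genes of cartilage-type and cushion matrix, elastic fibres, secreted Wnt modulators and BMP and TGF-beta ligands rose, and some of the Z-disc, the calcium store, potassium channels and fatty acid oxidation fell. Of 15758 genes tested among 37991 in the table, 1062 passed edgeR's quasi-likelihood test with litter as a term, at a Benjamini-Hochberg adjusted p under 0.05. That was 6.74% of the genes tested, with 573 higher in HLHS (3.64%) and 489 lower (3.1%). The counts of called genes in each list below are to be read against these shares. Of all genes tested, called or not, 8199 had a positive and 7559 a negative log2 change. Most changes were modest: a change of at least 2-fold was seen in 78 of the genes that rose and in 74 of those that fell. The median log2 fold change of all genes tested was 0.01. An unadjusted p under 0.05 was reached by 3744 genes (23.8%). In whole tissue, fewer cells of a type and less RNA per cell cannot be told apart.

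**Figure D1:**
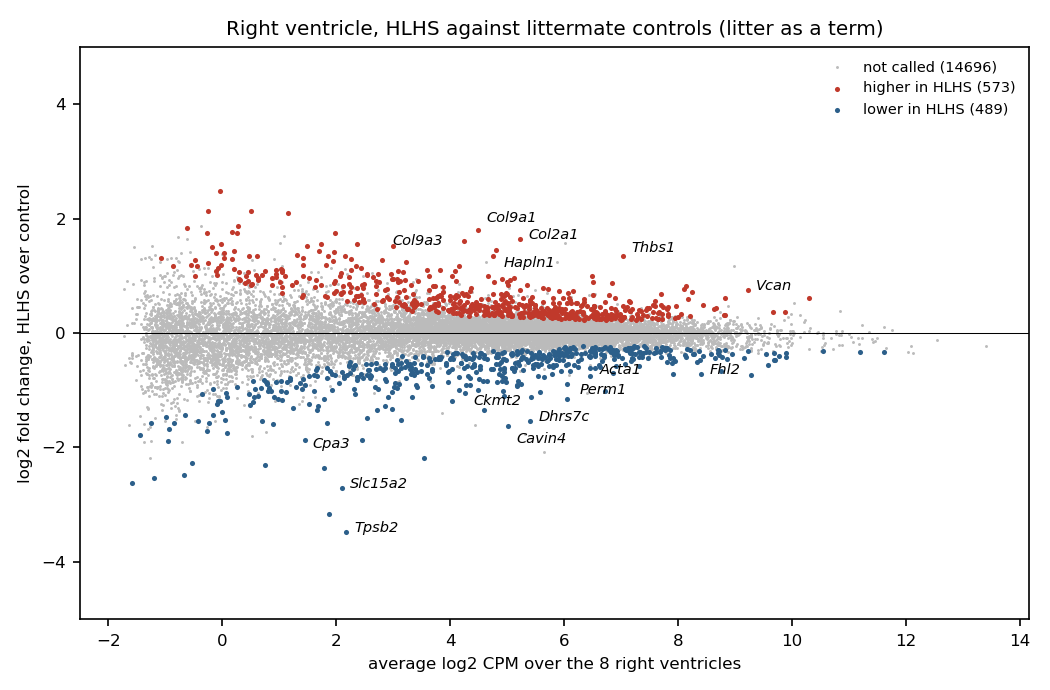
Each point is a gene, with its average log2 CPM over the 8 right ventricle libraries on the x axis and its log2 fold change, HLHS over control with litter as a term, on the y axis. The 573 genes called higher (red) and the 489 called lower (blue) at an adjusted p under 0.05 lie on both sides of 0, and the labelled genes are among those described in the text.

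For 1058 of the 1062 genes the HLHS library lay beyond all its littermate controls in the same direction in 3 of 3 litters, against 4597 (29.2%) of all genes tested. The genes were called from these same libraries with litter as a term, which favours genes that agree between litters. This agreement and the sizes of the differences that follow are therefore no separate support for the calls. The median difference of the called genes, HLHS minus the mean of littermate controls and signed by the call, was 0.50 on the log2 scale in the E13.5 litter, 0.48 in that of E14.5 and 0.51 in that of E17.5. The largest of the 3 differences fell in the E13.5 litter for 444 genes, in the E14.5 litter for 273 and in the E17.5 litter for 345. The spread between control littermates was not much smaller than between HLHS and control. At E14.5 the median absolute log2 difference was 0.18 and 0.17 between the HLHS library and each control, against 0.14 between the controls. At E17.5 it was 0.24 and 0.16 for HLHS against control and 0.16 between the controls. The calls rest on matching littermates: without litter as a replicate block 0 genes passed and 1321 had an unadjusted p under 0.05. The count was 192 without the E13.5 litter, without the E17.5 litter 202, and with a term for sex 600. Without the control that held Xist counts, 842 passed. Of 184 called genes that the rule for names took, 40 passed in each of the 8 fits that left out 1 library, among them Cavin4, Dhrs7c, Acta1, Perm1, Acsl1, Dll4, Tgfb2, Wif1, Thbs4, Tgfbi, Col2a1 and Hmga2, and 105 passed in at least 4.

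Sap130, a subunit gene of the Sin3-HDAC repressor complex linked to HLHS in mice, had 36.6, 27.9 and 32.0 CPM in HLHS right ventricles, against 52.0, 40.6, 39.0, 33.0 and 43.9 CPM in controls. Each HLHS library lay below its own littermates, and the groups as wholes overlapped slightly. The log2 change was −0.42 ± 0.10 (SE; 3 HLHS and 5 control libraries; adjusted p = 0.042), and it did not pass without the E13.5 litter, where 0 members of the complex fell. Among 18 genes of the complex tested, Sin3a, its scaffold (0.36 ± 0.07), and Ing1, which reads histone methylation (0.28 ± 0.06), rose, and Sap130 alone fell. The median of the 18 was 0.06. With a term for sex Sap130 did not pass either, and 1 of the 18 rose. Without the E13.5 litter 0 rose. Sap130 passed in 2 of the 8 fits that left out 1 library, Sin3a in 4 and Ing1 in 2.

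**Figure D2:**
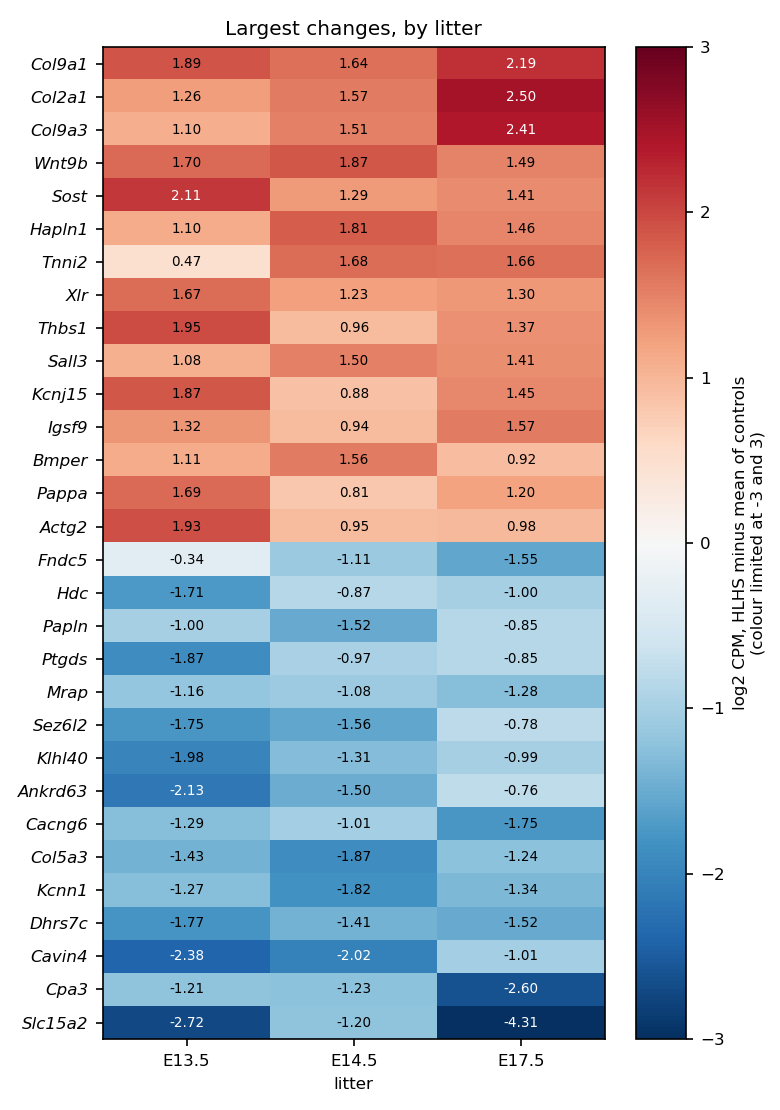
Each cell gives the log2 CPM difference, HLHS library minus the mean of its littermate controls, for the 15 largest increases and the 15 largest decreases (y axis) in each litter (x axis). All 30 genes have the same sign in the 3 litters, as the rule that chose them required; the smallest differences are those of Fndc5 (−0.34) and Tnni2 (0.47) at E13.5.

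Among called genes that averaged 2 or more on the log2 CPM scale and had the same sign in all 3 litters, the largest decrease was in Slc15a2, a proton-coupled peptide transporter, with 0.485, 1.56 and 0.351 CPM in HLHS right ventricles, against 3.65, 2.05, 6.61, 5.90 and 12.3 CPM in controls. The groups did not overlap, and the change was −2.70 ± 0.61 on the log2 scale, from −3.9999 to −1.88 when 1 library was left out, passing in 3 of those 8 fits. Kcnn1, a calcium-activated potassium channel, had 3.50, 2.77 and 5.57 CPM in HLHS right ventricles, against 8.55, 8.21, 12.1, 13.8 and 14.6 CPM in controls. It was likewise separate between the groups and fell by 1.51 ± 0.17, a 2.85-fold change. Col5a3, a chain of type V collagen (−1.49 ± 0.19), Cacng6, a calcium channel gamma subunit (−1.35 ± 0.19), Klhl40, a stabiliser of thin filament proteins in skeletal muscle (−1.34 ± 0.17), Mrap, an accessory protein of melanocortin receptors (−1.19 ± 0.11), Ptgds, a prostaglandin D synthase (−1.15 ± 0.20), Papln, a matrix glycoprotein (−1.12 ± 0.17), and Fndc5, the precursor of irisin (−1.11 ± 0.18), also fell. So did Ankrd63 (−1.34 ± 0.20) and Sez6l2 (−1.28 ± 0.19). Among the largest increases beside those described with their groups were Xlr (1.35 ± 0.18), whose family has near-identical copies that the counting may have split, the transcription factor gene Sall3 (1.29 ± 0.29), the potassium channel gene Kcnj15 (1.27 ± 0.28), the adhesion gene Igsf9 (1.25 ± 0.17), Pappa, a protease that frees insulin-like growth factors (1.16 ± 0.19), and Actg2, the enteric smooth muscle actin (1.14 ± 0.22).

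Some muscle structure genes fell in HLHS right ventricles, most by small amounts. Of 20 thick filament genes 3 fell and 0 rose (median −0.22), of 17 thin filament genes 4 fell and 1 rose (median −0.20), of 24 Z-disc and titin genes 6 fell and 1 rose (median −0.25), and of 25 sarcolemma and costamere genes 5 fell and 0 rose (median −0.21). In the sarcolemma list 23 of 25 had a negative log2 change, called or not, and all 4 medians were negative in each litter.

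Acta1, the skeletal actin that the fetal heart also expresses, had 64.3, 55.4 and 62.7 CPM in HLHS right ventricles, against 95.9, 114, 104, 114 and 87.3 CPM in controls. All 3 HLHS libraries lay below all 5 controls, and the log2 change was −0.76 ± 0.10 (adjusted p = 0.0068). Cavin4, a caveolar protein of striated muscle that sits near the Z-disc, had 3.18, 5.74 and 36.1 CPM in HLHS right ventricles, against 16.9, 20.4, 27.1, 74.7 and 71.2 CPM in controls. It was higher at the later stage in both groups, and the HLHS library was the lowest of its litter each time; the differences in order of stage were −2.38, −2.02 and −1.01. Fhl2, a LIM protein of the Z-disc, had 202, 196 and 286 CPM in HLHS right ventricles, against 282, 263, 333, 596 and 555 CPM in controls, lowest of its litter in each HLHS library (−0.71 ± 0.11). Myh7b, a myosin heavy chain of slow muscle, had 337, 202 and 257 CPM in HLHS right ventricles, against 477, 275, 309, 369 and 358 CPM in controls (−0.51 ± 0.07), again below its littermates at each stage. Tcap, the titin cap, fell by 0.61 ± 0.12, Mypn, a Z-disc scaffold, by 0.48 ± 0.07, Ldb3 by 0.41 ± 0.07, Mybpc3, cardiac myosin-binding protein C, by 0.33 ± 0.08, and the caveolar genes Cav1, Cav3 and Cavin3 by 0.47 ± 0.07, 0.43 ± 0.09 and 0.38 ± 0.10.

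The troponin genes moved apart. Tnni3, the troponin I of the mature heart, had 623, 566 and 780.3 CPM in HLHS right ventricles, against 872, 661, 782, 1287 and 1031 CPM in controls, and fell (−0.47 ± 0.10). Tnnt1, slow skeletal troponin T, fell too (−0.40 ± 0.08). Tnni2, the fast skeletal troponin I, had 37.7, 71.8 and 20.4 CPM in HLHS right ventricles, against 27.2, 19.6, 25.3, 6.69 and 6.17 CPM in controls. It rose (1.35 ± 0.19), most at E14.5 and E17.5, with differences of 1.68 and 1.66 against 0.47 at E13.5. Pdlim3, a Z-disc PDZ and LIM protein, also rose (0.40 ± 0.08). The main contractile genes did not pass: Myh6 had a log2 change of −0.35 ± 0.16, with differences of −0.06 at E13.5, −0.06 at E14.5 and −0.90 in the E17.5 litter, Myh7 of −0.22 ± 0.08 and Actc1 of −0.22 ± 0.09. In the fit that leaves out the E13.5 litter, 1 thick filament, 1 thin filament, 2 Z-disc and 1 sarcolemma gene fell, with medians from −0.20 to −0.25.

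To show the promoters of genes that fell together, windows of 300 bases (250 before to 50 after the start of the transcript) were taken from RefSeq on GRCm38.p6 by gene symbol. They were searched on both strands for the CArG box bound by serum response factor, the MEF2 site and the letters AAGGTCA, a recognition element of nuclear receptors such as the oestrogen-related receptors. These 3 genes are shown because they are among the muscle and energy genes described here that hold a match; capitals mark the CArG box in Acta1 and Fhl2 and AAGGTCA, on the opposite strand, in Perm1.
Acta1, chr8:123894726-123895025, minus strand: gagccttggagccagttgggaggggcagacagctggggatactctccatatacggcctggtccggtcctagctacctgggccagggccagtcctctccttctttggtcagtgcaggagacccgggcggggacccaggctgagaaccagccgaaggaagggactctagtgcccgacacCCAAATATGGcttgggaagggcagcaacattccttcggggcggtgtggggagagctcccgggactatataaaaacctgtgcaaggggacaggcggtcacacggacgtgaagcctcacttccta
Fhl2, chr1:43163912-43164211, minus strand: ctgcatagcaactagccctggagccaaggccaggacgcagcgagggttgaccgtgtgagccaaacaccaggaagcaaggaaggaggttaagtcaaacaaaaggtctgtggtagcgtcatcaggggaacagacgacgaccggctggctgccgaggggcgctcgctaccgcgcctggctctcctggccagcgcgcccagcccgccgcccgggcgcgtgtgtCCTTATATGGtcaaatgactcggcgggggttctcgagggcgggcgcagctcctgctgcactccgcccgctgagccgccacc
Perm1, chr4:156215677-156215976, plus strand: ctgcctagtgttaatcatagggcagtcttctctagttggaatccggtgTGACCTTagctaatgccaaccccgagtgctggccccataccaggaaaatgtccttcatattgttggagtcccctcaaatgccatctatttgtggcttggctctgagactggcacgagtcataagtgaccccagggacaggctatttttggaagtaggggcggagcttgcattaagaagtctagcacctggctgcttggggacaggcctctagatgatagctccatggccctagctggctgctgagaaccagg
A CArG box stood in 1.63% of all 32851 windows, a MEF2 site in 0.557% and AAGGTCA in 4.72%. These shares are per window, while the counts below are per gene. A gene can have several windows and was counted if any of them held a match, so the shares and the counts are unlike measures. Fhl2 has another window with a CArG box, which is not shown. Called members are counted in either direction. Those of the muscle lists include Tnni2 and Pdlim3, which rose, and those of the energy lists Slc27a6 and Idh1, which rose. Those of the matrix lists include Col5a3, which fell. Of the 19 called members of the 4 muscle structure lists, 12 had a window and 3 of these held a CArG box (Acta1, Fhl2, Ldb3), while it stood in 8 of the 50 members with a window that were not called. A MEF2 site stood in 1 of the 12 and in 5 of the 50, and AAGGTCA in 2 of the 12 (Cav3, Myh7b) and 0 of the 50. Of the called members of the lists of fatty acid oxidation, oxidative phosphorylation, citric acid cycle and energy regulators, 4 of 18 with a window held AAGGTCA (Acadm, Ak1, Ndufb2, Perm1), against 6 of 110 that were not called. Of the called members of the collagen, cartilage-type, proteoglycan, elastic fibre and matricellular lists, 3 of 19 with a window held AAGGTCA (Col11a1, Col9a1, Efemp2). Of those not called, 4 of 47 did. A match describes the letters of the window and does not show that a factor binds there.

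Some genes of the calcium store and of repolarisation fell. Of 26 calcium handling genes 9 fell and 0 rose (median −0.17), and of 34 ion channel genes 10 fell and 1 rose (median −0.25). Dhrs7c, a dehydrogenase of the sarcoplasmic reticulum in striated muscle, had 5.18, 10.8 and 36.3 CPM in HLHS right ventricles, against 17.9, 26.9, 30.7, 109.6 and 98.5 CPM in controls. Both groups were higher at E17.5, and each HLHS library was below its littermates, with log2 differences of −1.77, −1.41 and −1.52 at E13.5, E14.5 and E17.5 (−1.54 ± 0.10 in all; adjusted p = 3.38e-04). Camk2a, a calcium and calmodulin-dependent kinase, had 181, 149 and 122 CPM in HLHS right ventricles, against 241, 195, 201, 163 and 175 CPM in controls (−0.43 ± 0.06), and Camk2b was at −0.81 ± 0.12. Among the genes of the store itself, Trdn (triadin, −0.42 ± 0.07), Ryr2 (the release channel, −0.40 ± 0.09), Casq2 (the calcium buffer calsequestrin, −0.35 ± 0.08), Atp2a2 (the uptake pump, −0.34 ± 0.08), Pln (phospholamban, which restrains that pump, −0.32 ± 0.08) and S100a1 (−0.50 ± 0.13) fell.

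Of the potassium channel genes, those of the transient outward current fell, Kcnip2 (−0.93 ± 0.14) and Kcnd2 (−0.63 ± 0.12), as did Kcnq1 and Kcnh2 of the delayed rectifier currents (−0.55 ± 0.08 and −0.33 ± 0.06), Kcnj2, Kcnj5 and Kcnj8 of inward rectifier currents (−0.42 ± 0.09, −0.41 ± 0.09 and −0.69 ± 0.12), and Kcnn2 (−0.44 ± 0.08). Kcnip2 had 3.88, 14.0 and 41.6 CPM in HLHS right ventricles, against 10.1, 18.4, 23.8, 93.0 and 79.2 CPM in controls. Its level was higher at the later stages in both groups, and each HLHS library was the lowest of its litter. Scn10a, a sodium channel gene better known from sensory neurons, was the one that rose, with 15.2, 17.7 and 21.7 CPM in HLHS right ventricles, against 12.4, 8.78, 9.33, 12.2 and 9.03 CPM in controls. Its groups did not overlap (0.82 ± 0.14). The 6 connexin genes had none past the threshold (median −0.15). When the E13.5 litter was left out, 2 calcium handling genes fell and 1 rose, and 2 ion channel genes fell and 1 rose; the medians were −0.19 and −0.22.

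In the list of vasoactive ligands, receptors and related enzymes, 2 rose and 3 fell of 22 (median −0.11). Adra1b, an alpha-1 adrenergic receptor, had 6.63, 8.12 and 9.11 CPM in HLHS right ventricles, against 13.6, 14.2, 13.47, 17.48 and 19.1 CPM in controls. The HLHS libraries lay below all controls (−0.92 ± 0.10). Adra1d (−0.81 ± 0.19) and Aplnr, the apelin receptor (−0.39 ± 0.09), fell, and Edn1, which encodes the ligand endothelin 1 (0.62 ± 0.14), and the receptor gene Adrb3 (1.02 ± 0.25) rose. Neither increase held with a term for sex, without control replicate 4 or without the E13.5 litter, where 0 of the list rose and 2, 2 and 1 fell.

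Some genes of energy supply from fat fell. Of 37 fatty acid oxidation genes 11 fell and 1 rose (median −0.26), and 34 of the 37 had a negative log2 change. Acsl1, which activates long-chain fatty acids, had 95.1, 129 and 281 CPM in HLHS right ventricles, against 178, 205, 246, 407 and 382 CPM in controls. The HLHS library was the lowest of its litter at each stage (−0.71 ± 0.09). The lipid droplet gene Plin5 (−1.28 ± 0.23), the fatty acid carriers Cd36 (−0.40 ± 0.07) and Fabp3 (−0.42 ± 0.10), Cpt1b, the entry step to mitochondria (−0.53 ± 0.12), and the dehydrogenases Acadvl (−0.42 ± 0.09) and Acadm (−0.35 ± 0.09) fell, while the transporter Slc27a6 rose (0.89 ± 0.20).

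Perm1, a muscle regulator of oxidative metabolism, had 27.2, 31.9 and 62.0 CPM in HLHS right ventricles, against 50.3, 51.0, 57.0, 129.9 and 119 CPM in controls. The HLHS library was the lowest of its litter each time, with log2 differences of −0.89, −0.75 and −1.004 at E13.5, E14.5 and E17.5 (−0.88 ± 0.08 in all; adjusted p = 0.00169). The sarcomeric creatine kinase of mitochondria, encoded by Ckmt2, stood at 9.27, 11.6 and 49.9 CPM in HLHS right ventricles, against 18.0, 15.5, 23.0, 141 and 112 CPM in controls (−1.04 ± 0.16), with its 2 E17.5 controls far above all other libraries. Of 21 energy regulators and phosphotransfer genes 6 fell and 0 rose (median −0.20), which adds Ckm, the cytosolic creatine kinase (−0.73 ± 0.12), the adenylate kinase gene Ak1 (−0.37 ± 0.08), Ppara (−0.63 ± 0.15) and Klf9 (−0.54 ± 0.13).

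Among nuclear genes for oxidative phosphorylation, 4 of 74 fell and 0 rose, a called share of 5.41% that was below the 6.74% of all genes tested. All 74 had a negative log2 change (median −0.20), against 7559 of all 15758 genes tested. The medians by litter, in order of stage, were −0.18, −0.05 and −0.37. The 4 were Cox6a2, Cox8b and Cox7a1 of cytochrome c oxidase (−0.53 ± 0.10, −0.66 ± 0.15 and −0.49 ± 0.12), and Ndufb2 of complex I (−0.40 ± 0.10). In the citric acid cycle list 0 of 27 fell and Idh1, the cytosolic isocitrate dehydrogenase, rose (0.30 ± 0.06), with a median of −0.20. Of 12 mitochondrially encoded genes none passed (median −0.09). Glycolysis and glycogen had 6 of 29 lower and 0 higher (median −0.10), among them Pygm, the muscle glycogen phosphorylase (−0.36 ± 0.07), the glycogen genes Gbe1 (−0.32 ± 0.07) and Gys1 (−0.29 ± 0.07), Eno3 (−0.44 ± 0.10), Pfkm (−0.32 ± 0.08) and the insulin-regulated glucose transporter Slc2a4 (−0.29 ± 0.07). Without the E13.5 litter 1 fatty acid oxidation, 2 energy regulator, 0 oxidative phosphorylation and 0 glycolysis genes fell, with medians of −0.26, −0.23, −0.22 and −0.11. With a term for sex 3, 3, 2 and 1 genes of these lists fell, in the same order. Slc27a6 passed in neither fit.

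**Figure D3:**
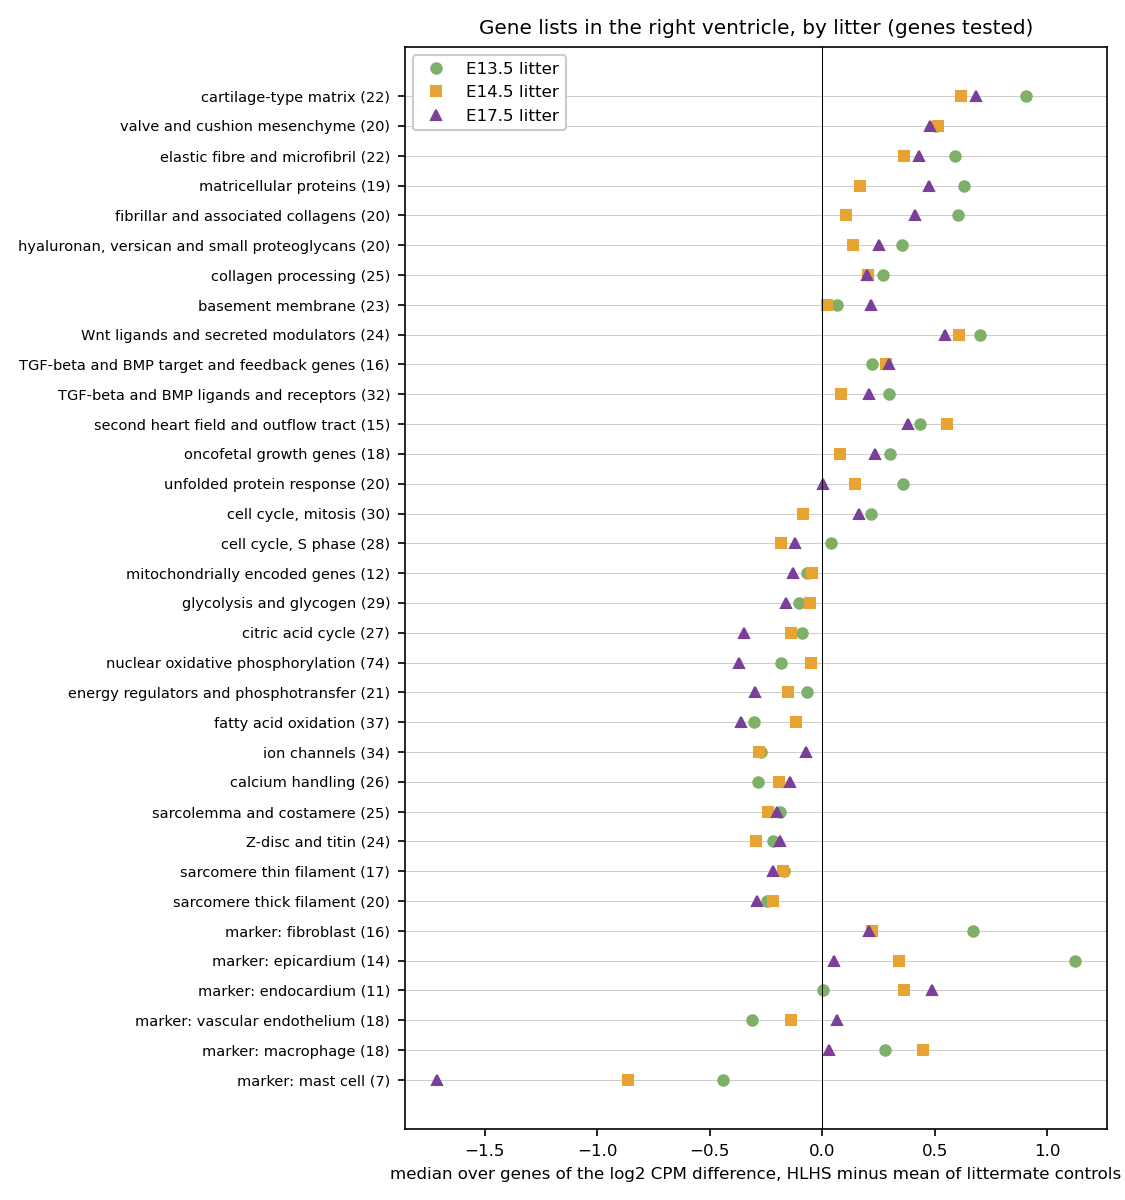
Each row is a gene list with the number of genes tested, and the x axis is the median over its genes of the log2 CPM difference, HLHS library minus the mean of its littermate controls, with a symbol for each litter. Matrix, Wnt and outflow lists lie above 0 and muscle and energy lists below 0 in the 3 litters; the epicardial list reaches 1.12 at E13.5 against 0.05 at E17.5, and the mast cell list falls to −1.71 at E17.5.

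Some matrix genes of cartilage, valves and cushions rose. Of 22 cartilage-type matrix genes tested 8 rose and 0 fell (median 0.76), of 20 valve and cushion genes 6 rose and 0 fell (median 0.45), of 20 genes of hyaluronan, versican and small proteoglycans 6 rose and 0 fell (median 0.20), and of 22 elastic fibre genes 9 rose and 0 fell (median 0.47). These lists share members: Hapln1, Vcan, Has2 and Fmod were each counted in more than 1 of them. Col2a1, the fibril collagen of cartilage that cushion mesenchyme also makes, had 134, 61.1 and 6.82 CPM in HLHS right ventricles, against 55.8, 28.7, 14.8, 0.905 and 1.43 CPM in controls. Its level was lower at the later stages in both groups, and each HLHS library was above its littermates by 1.26, 1.57 and 2.50 on the log2 scale at E13.5, E14.5 and E17.5. Col9a1, a chain of type IX collagen that coats such fibrils, had 46.3, 46.4 and 26.9 CPM in HLHS right ventricles, against 12.4, 26.8, 8.15, 4.33 and 7.86 CPM in controls. All HLHS libraries exceeded all controls, though the E17.5 HLHS library was barely above the highest control, one of E14.5 (1.80 ± 0.32; adjusted p = 0.0153). Col9a3 (1.61 ± 0.33), Col9a2 (0.60 ± 0.14), Col11a1 (0.90 ± 0.12) and Prg4, which encodes lubricin (1.00 ± 0.22), rose as well. Sox9, the transcription factor of cartilage and cushion mesenchyme, had 29.7, 25.6 and 26.3 CPM in HLHS right ventricles, against 13.3, 23.4, 12.1, 15.7 and 19.3 CPM in controls. The HLHS libraries were above all controls, but the log2 change of 0.71 ± 0.20 did not pass (adjusted p = 0.0605).

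Hapln1, which links hyaluronan to versican, had 40.3, 68.7 and 29.1 CPM in HLHS right ventricles, against 18.7, 30.6, 12.4, 8.70 and 12.7 CPM in controls. Each HLHS library was above its littermates, while the groups as wholes overlapped (1.44 ± 0.24). Vcan, the proteoglycan versican, had 1025, 799.6 and 595 CPM in HLHS right ventricles, against 678, 627, 514, 239 and 306 CPM in controls (0.76 ± 0.13), Has2, the hyaluronan synthase of the cushions, was at 1.04 ± 0.22, and the small proteoglycan genes Bgn and Fmod at 0.77 ± 0.13 and 0.94 ± 0.12. Tgfbi, a matrix protein of cushions and valves, rose by 0.99 ± 0.09 (adjusted p = 0.00169), and Prrx2 and Snai2, transcription factors of mesenchyme, were at 0.47 ± 0.09 and 0.43 ± 0.11.

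Among elastic fibre genes Emilin1 (0.42 ± 0.07), Ltbp1, which tethers latent TGF-beta to microfibrils (0.56 ± 0.10), the fibulin genes Fbln1 and Fbln2 (0.47 ± 0.09 and 0.81 ± 0.17), Efemp2 (0.35 ± 0.08), Fbn1, the microfibril protein fibrillin 1 (0.50 ± 0.11), and the cross-linking enzyme gene Loxl2 (0.42 ± 0.09) rose. Of 19 matricellular genes 5 rose and 0 fell (median 0.33). Thbs4, a thrombospondin, had 145, 138 and 103 CPM in HLHS right ventricles, against 87.3, 69.8, 78.5, 51.6 and 52.3 CPM in controls. The groups were separate and the difference between control littermates was small (0.89 ± 0.07; adjusted p = 9.11e-04). Thbs1 had 238, 176 and 210.3 CPM in HLHS right ventricles, against 61.4, 129, 63.3, 69.8 and 94.1 CPM in controls (1.34 ± 0.23), Thbs3 was at 0.36 ± 0.09, and Fn1, fibronectin, at 0.62 ± 0.13.

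The interstitial collagens did not all follow. Of 20 fibrillar and associated collagen genes 2 rose, Col5a2 (0.62 ± 0.10) and Col16a1 (0.47 ± 0.11), and Col5a3 fell, with 0.539, 0.709 and 6.31 CPM in HLHS right ventricles, against 1.59, 3.31, 2.39, 15.4 and 14.6 CPM in controls. Col1a1 had 997, 977 and 1141 CPM in HLHS right ventricles, against 496, 1179, 1003, 974 and 1039 CPM in controls, and Col3a1 1838, 2090.3 and 2207 CPM in HLHS right ventricles, against 999, 2054, 1648, 1911 and 1937 CPM in controls. In both the E13.5 control was the lowest library, and neither change passed (0.29 ± 0.17 and 0.38 ± 0.13). Of 25 collagen processing genes 8 rose and 0 fell (median 0.21), among them the hydroxylase genes P3h1 (0.46 ± 0.06), Plod2 (0.55 ± 0.07), Plod3 (0.33 ± 0.06) and P4ha3 (0.45 ± 0.08), the glycosyltransferase gene Colgalt1 (0.26 ± 0.05) and Mmp2, a matrix metalloprotease (0.47 ± 0.09). Of 23 basement membrane genes 4 rose and 0 fell (median 0.08), among them Frem2 (0.61 ± 0.11), Npnt (0.66 ± 0.14) and Col4a6 (0.46 ± 0.12).

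Fibroblast markers moved with these genes in part. Their sum was 5860 to 7767 CPM in HLHS and 3644 to 6705 CPM in control right ventricles, lowest in the E13.5 control, and 1 of 16, Fbln1, passed (median 0.32, with litter medians of 0.67, 0.22 and 0.21). The litter medians of the cartilage-type list were 0.91, 0.62 and 0.68. The part of fibroblast number in the matrix genes was not tested. Leaving out the E13.5 litter, 3 cartilage-type, 2 valve, 1 proteoglycan, 0 elastic fibre, 2 matricellular and 2 collagen processing genes rose, and the medians were 0.59, 0.40, 0.18, 0.35, 0.30 and 0.18. In that fit 0 basement membrane genes (median 0.11) and 1 fibrillar collagen gene (median 0.22) rose, and with a term for sex 2 basement membrane genes and 1 fibrillar collagen gene did.

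**Figure D4:**
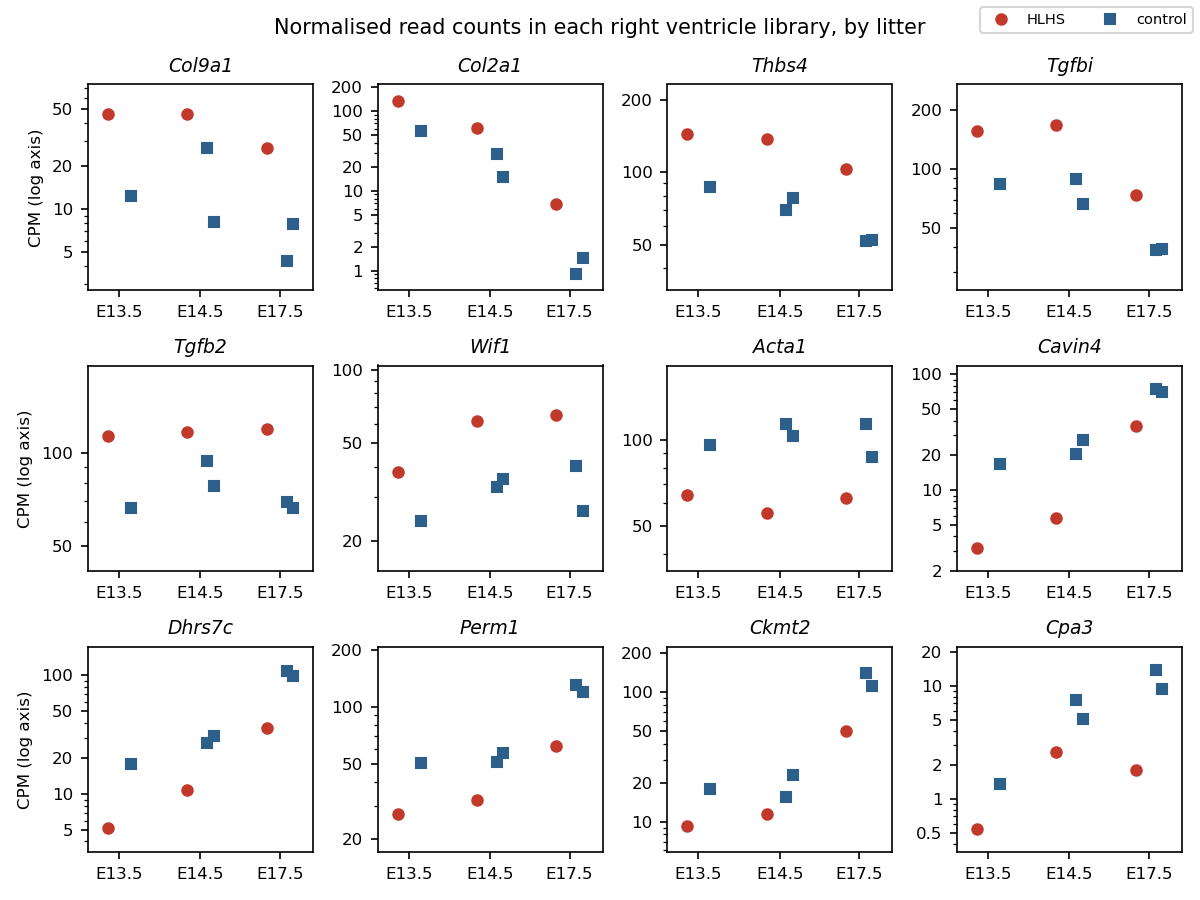
Each panel shows a gene's CPM on a log axis in each right ventricle library, by litter, with the HLHS library (red circle) left of its control littermates (blue squares). In each litter the HLHS library lies above its controls for Col9a1, Col2a1, Thbs4, Tgfbi, Tgfb2 and Wif1, and below them for Acta1, Cavin4, Dhrs7c, Perm1, Ckmt2 and Cpa3.

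Several ligands of the TGF-beta and BMP family rose. Of 32 ligands, receptors and antagonists 7 rose and 1 fell (median 0.15), and of 16 target and feedback genes 5 rose and 0 fell (median 0.27, with 15 of 16 positive). Tgfb2, the TGF-beta ligand of cushion formation, had 113, 117 and 119 CPM in HLHS right ventricles, against 66.3, 93.9, 78.0, 69.1 and 66.6 CPM in controls. The HLHS libraries were alike at the 3 stages and above all controls (0.67 ± 0.09; adjusted p = 0.00672). Bmp4, a ligand of the outflow tract, had 25.8, 21.3 and 16.9 CPM in HLHS right ventricles, against 8.96, 13.8, 8.15, 8.23 and 9.33 CPM in controls, again with no overlap (1.10 ± 0.17). Tgfb3 (0.63 ± 0.10), Bmp6 (0.68 ± 0.14), Fstl1 (0.37 ± 0.08), and the extracellular BMP modulators Bmper (1.17 ± 0.21) and Nog (0.93 ± 0.22) rose. Nodal was lower at under 0.5 CPM in all libraries, and its values are near the detection limit. The target genes that rose included Id2 (0.46 ± 0.11), Id3 (0.24 ± 0.06), Tgif1 (0.44 ± 0.10) and Atoh8 (0.44 ± 0.11). Without the E13.5 litter 1 ligand or receptor gene and 0 target genes rose, with medians of 0.15 and 0.30, and with a term for sex 0 target genes rose.

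Several secreted Wnt proteins and inhibitors rose. Of 24 Wnt ligands and secreted modulators 8 rose and 1 fell (median 0.55), while of 15 canonical target genes none passed (median 0.12; 7 higher at an unadjusted p under 0.05). Wif1, an inhibitor that binds Wnt proteins, had 38.2, 61.8 and 64.9 CPM in HLHS right ventricles, against 23.9, 33.1, 35.9, 40.5 and 26.4 CPM in controls. Each HLHS library was above its littermates (0.84 ± 0.12). Sost, the co-receptor antagonist sclerostin, had 10.5, 10.4 and 17.7 CPM in HLHS right ventricles, against 2.36, 4.64, 3.85, 5.59 and 7.86 CPM in controls (1.51 ± 0.17), and Wnt9b had 10.5, 8.37 and 7.60 CPM in HLHS right ventricles, against 3.18, 4.64, 1.05, 2.13 and 3.31 CPM in controls (1.56 ± 0.33). Both were separate between the groups. The membrane-bound inhibitor gene Apcdd1 (0.96 ± 0.19), Sfrp1 (0.29 ± 0.07) and the ligand genes Wnt11 (0.65 ± 0.11), Wnt5a (0.47 ± 0.11) and Wnt5b (0.50 ± 0.13) rose too. Sfrp5, another secreted Frizzled-related protein, went the other way, with 0.324, 0.284 and 0.701 CPM in HLHS right ventricles, against 1.65, 1.71, 1.58, 1.93 and 4.32 CPM in controls. All HLHS values were below all controls (−2.30 ± 0.34), at low levels. Without the E13.5 litter 2 genes of the list rose and 1 fell (median 0.53).

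Of 15 genes of the second heart field and outflow tract 4 rose and 0 fell (median 0.35), namely Bmp4, Wnt11, Wnt5a and Sema3c (0.48 ± 0.09). All 4 also belong to the BMP, Wnt or axon guidance lists, so the outflow list adds no called gene of its own. Of 37 axon guidance genes, which also steer cells in the heart, 7 rose and 2 fell (median 0.11). The receptor genes Robo1 (0.88 ± 0.17), Epha7 (0.61 ± 0.11) and Ephb2 (0.75 ± 0.15) and the ligand genes Slit2 (0.54 ± 0.11), Sema3a (0.42 ± 0.11), Sema3c and Sema3d (0.56 ± 0.12) rose, and Ntn1 (−0.55 ± 0.13) and Sema3b (−0.38 ± 0.09) fell. Of 11 left ventricular and trabecular markers 3 rose and 0 fell (median 0.15): Slit2, Sema3a and Nrg1. Slit2 and Sema3a are those of the axon guidance list, and Nrg1 is also in the list of neuregulin, FGF and IGF signalling. Of 16 retinoic acid genes 3 rose and 1 fell (median 0.16): Cyp26b1, which degrades retinoic acid (1.06 ± 0.25), and Dhrs3 (0.46 ± 0.11) were among those that rose, and the receptor gene Rxra fell (−0.24 ± 0.06). No outflow or axon guidance gene rose without the E13.5 litter (medians 0.40 and 0.07), 0 of the left ventricular and trabecular markers rose (median 0.16), and 1 retinoic acid gene rose. Sema3a passed in 0 of the 8 fits that left out 1 library.

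Some growth factor genes rose and some Notch genes fell. Of 33 genes of neuregulin, FGF and IGF signalling 5 rose and 1 fell (median 0.11). Nrg1, a ligand that drives trabeculation, had 7.12, 3.30 and 4.36 CPM in HLHS right ventricles, against 2.65, 1.86, 0.974, 0.748 and 1.54 CPM in controls. The groups did not overlap (1.53 ± 0.26). Igf1 (0.54 ± 0.09), Fgf2 (1.28 ± 0.33), Fgfr1 (0.33 ± 0.08) and the feedback phosphatase gene Dusp6 (0.40 ± 0.07) rose, and the neuregulin receptor gene Erbb3, also a marker of Schwann cells, fell (−0.42 ± 0.10). Of 18 Notch pathway genes 4 fell and 0 rose (median −0.04). Dll4, the endothelial Notch ligand, had 27.8, 19.7 and 22.7 CPM in HLHS right ventricles, against 42.6, 32.0, 34.5, 35.8 and 30.0 CPM in controls, with all HLHS libraries below all controls (−0.64 ± 0.09), and Nrarp (−0.60 ± 0.08), Notch4 (−0.44 ± 0.09) and Hey2 (−0.33 ± 0.07) fell. Vascular endothelial markers summed to 1924 to 2539 CPM in HLHS and 2291 to 2590 CPM in control right ventricles, and their part in the Notch genes was not tested. Without the E13.5 litter 0 growth factor genes rose and 2 Notch genes fell (medians 0.14 and −0.06).

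Of 31 cardiac transcription factors 5 fell and 0 rose (median −0.09): the ventricular regulator Irx4 (−0.38 ± 0.07), Irx1 (−0.67 ± 0.15), Hey2, the muscle methyltransferase Smyd1 (−0.29 ± 0.07) and Mef2d (−0.28 ± 0.07). With a term for sex 1 of them fell, and without the E13.5 litter 0. Hand1 had a log2 change of −0.08 ± 0.18 and Hand2 of −0.09 ± 0.08; both had the opposite sign without the E17.5 litter, at 7.33e-04 and 0.022. Tbx5 was at −0.35 ± 0.16, and these 3 did not pass. Of 16 cardiac splicing regulators 3 fell and 1 rose (median −0.02). Dmpk, the myotonic dystrophy kinase (−0.70 ± 0.06), Rbm20, the regulator of titin splicing (−0.36 ± 0.07), and Rbfox1 (−0.40 ± 0.10) fell, and Ptbp1, a splicing repressor of immature cells, rose (0.24 ± 0.06; adjusted p = 0.0497). Ptbp1 passed in 1 of the 8 fits that left out 1 library, and did not pass in limma-voom, with DESeq2 size factors, with a term for sex, without control replicate 4 or without the E13.5 litter, and 1 of the list fell without that litter (median −0.05).

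Of 18 oncofetal growth genes 5 rose and 0 fell (median 0.14), with Hmga2, a chromatin protein of fetal tissue, at 71.2, 46.9 and 18.4 CPM in HLHS right ventricles, against 30.4, 24.1, 28.4, 10.1 and 10.7 CPM in controls. Its level was lower at E17.5 in both groups and higher in HLHS within each litter (0.94 ± 0.10; adjusted p = 0.00343). The heparin-binding growth factor genes Mdk (0.42 ± 0.07) and Ptn (0.50 ± 0.10) and the imprinted genes Mest (0.36 ± 0.08) and Peg3 (0.44 ± 0.10) rose. Of the 18, 2 rose without the E13.5 litter. On the first principal component of the 8 libraries (48.3% of the variance), which ordered them by stage, each HLHS library lay on the earlier side of its littermates: −46.9 against −36.2 at E13.5, −22.0 against −10.9 and −2.44 at E14.5, and 26.9 against 52.1 and 39.5 at E17.5.

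Of 30 mitosis genes none passed (median 0.09, 28 positive, litter medians 0.22, −0.08 and 0.16), and Mki67 was at 0.05 ± 0.10, with the opposite sign (−0.08) without the E17.5 litter. Of 28 S phase genes 1 fell, E2f1 (−0.42 ± 0.10), with a median of −0.08; it did not pass with a term for sex or without the E13.5 litter. Of 22 cell cycle inhibitors and p53 targets 1 fell, Cdkn1a, which encodes p21. It had 35.6, 34.2 and 51.8 CPM in HLHS right ventricles, against 46.6, 44.2, 46.9, 70.9 and 62.9 CPM in controls, the lowest of its litter in each HLHS library (−0.39 ± 0.07; adjusted p = 0.0167).

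Stress lists were mixed. Of 21 genes of cardiac stress and wall strain 4 fell and 0 rose (median 0.05): Acta1, the small heat shock protein gene Hspb7 (−0.36 ± 0.08), Nmrk2 (−0.55 ± 0.13) and Atf5 (−0.40 ± 0.10). The natriuretic peptide genes did not pass: Nppa had 133, 96.7 and 89.6 CPM in HLHS right ventricles, against 120.6, 48.1, 74.8, 49.0 and 73.0 CPM in controls (0.48 ± 0.16), and Nppb was at 0.11 ± 0.25, negative without the E13.5 litter (−0.06). Of 30 hypoxia targets 3 rose and 1 fell (median 0.01), with Vegfa lower (−0.29 ± 0.06) and Hmox1 and Loxl2 among those that rose. Hmox1, heme oxygenase 1, had 29.5, 37.2 and 41.6 CPM in HLHS right ventricles, against 20.2, 21.5, 20.5, 15.9 and 14.6 CPM in controls, with no overlap (0.99 ± 0.14). Of 22 antioxidant and iron genes 2 rose, Hmox1 and the extracellular peroxidase gene Gpx3 (0.73 ± 0.08), and 3 fell, the metallothionein genes Mt1 (−0.62 ± 0.11) and Mt2 (−0.998 ± 0.21) and Srxn1 (−0.59 ± 0.12); the median was 0.01. Of 20 unfolded protein response genes 3 rose and 0 fell (median 0.15): Pdia4 (0.39 ± 0.07), Pdia3 (0.32 ± 0.08) and Dnajb9 (0.36 ± 0.08). Leaving out the E13.5 litter, 0 unfolded protein response genes rose (median 0.07), 1 cardiac stress gene fell (median −0.06), 1 hypoxia target rose and 0 fell (median −0.02), and 2 antioxidant genes rose and 0 fell. With a term for sex 1 unfolded protein response gene and 1 hypoxia target rose, and 2 cardiac stress genes fell. Of 19 integrated stress response genes 1 fell, Atf5 (median −0.01), and of 24 immediate early and heat shock genes 1 fell, Jun (−0.28 ± 0.06), with a median of 0.06. Of 16 human HLHS candidate genes 1 rose, Lrp2 (0.94 ± 0.20), with a median of 0.03. Of 20 solute and nucleoside transporters 3 fell and 1 rose (median −0.17): Slc15a2, Slc28a2 (−1.57 ± 0.28) and the anion exchanger gene Slc4a3 (−0.49 ± 0.06) fell, and the taurine transporter gene Slc6a6 rose (0.44 ± 0.07).

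Some mast cell markers fell. Of 7 tested among 11 matched, 4 fell and 0 rose (median −1.12), and the number stayed at 4 without the E13.5 litter and with a term for sex. Cpa3, a carboxypeptidase of mast cell granules, had 0.539, 2.59 and 1.79 CPM in HLHS right ventricles, against 1.36, 7.52, 5.11, 13.9 and 9.25 CPM in controls. Each HLHS library was below its littermates, by the most at E17.5 (−1.87 ± 0.31). The protease genes Tpsb2 and Cma1 showed the same order at the later stages: Tpsb2 had 0, 0.0355 and 1.60 CPM in HLHS right ventricles, against 0, 3.84, 3.20, 16.6 and 8.65 CPM in controls, and Cma1 0.216, 0.638 and 0.506 CPM in HLHS right ventricles, against 0.354, 5.05, 2.80, 10.9 and 6.92 CPM in controls. At E13.5 Tpsb2 was at 0 in both groups. Hdc, which makes histamine, fell by 1.12 ± 0.15. The summed mast cell list, led by Kit, was 50.0 to 69.1 CPM in HLHS and 67.9 to 103 CPM in control right ventricles.

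Macrophage markers had 2 of 18 higher and 0 lower (median 0.29). F13a1, a factor XIII subunit of tissue macrophages, had 15.5, 25.6 and 30.8 CPM in HLHS right ventricles, against 6.19, 12.2, 11.0, 17.2 and 15.9 CPM in controls. Each HLHS library was above its littermates (1.09 ± 0.10; adjusted p = 0.00169), and Mrc1, the mannose receptor, rose by 0.49 ± 0.10. Their summed level was 175 to 257 CPM in HLHS and 147 to 204 CPM in control right ventricles. Epicardial markers had 3 of 14 higher (median 0.50; 1.12 in the E13.5 litter, whose control was low), namely Krt18 (0.66 ± 0.12), Sema3d and Bnc1 (0.83 ± 0.19), and 1 of 14 was higher without that litter. Endocardial markers had 3 of 11 higher (median 0.33), Hapln1, Cdh11 (0.56 ± 0.11) and Tmem108 (0.33 ± 0.07), with a sum of 937 to 1156 CPM in HLHS and 605 to 961 CPM in controls.

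Of 18 vascular endothelial markers 1 fell, the tight junction gene Cldn5 (−0.85 ± 0.10; median −0.09). Smooth muscle and pericyte markers had 2 higher, Tagln (0.67 ± 0.12) and Cnn1 (0.39 ± 0.10), and 2 lower, Smtn (−0.38 ± 0.06) and Kcnj8, of 15 (median 0.04). Schwann and neural crest markers had 1 higher, Tubb3 (1.36 ± 0.27), and 1 lower, Erbb3, of 8 (median −0.03). None passed among 15 erythroid (median 0.07), 7 platelet (median −0.26) and 14 atrial markers (median 0.05), nor among 1 lung, 3 liver and 1 thymus genes. Of 5 skeletal muscle markers 1 fell, Myh3, embryonic myosin, at under 2 CPM in all libraries (−1.43 ± 0.32).

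Whether the HLHS effect in the right ventricle differed between the E17.5 and the E14.5 litter, which had 2 controls each, was tested in 1 fit. No gene of 15758 passed in edgeR's quasi-likelihood test (0%), and 993 had an unadjusted p under 0.05 (6.3%). In limma-voom 0 genes passed and 997 had such a p, and in DESeq2 10 passed. The spread came from the 2 control pairs alone, with the lone HLHS library of each litter assumed to vary like them. The gene with the smallest p was Gipr, the receptor of an incretin hormone, with 28.5, 31.0 and 102 CPM in HLHS right ventricles, against 111, 96.2, 106, 90.2 and 109 CPM in controls. The HLHS library was below its littermates at E13.5 and E14.5 and within their range at E17.5, with an effect at E17.5 minus that at E14.5 of 1.74 ± 0.20 (adjusted p = 0.381). The next were Zbtb16 (1.86 ± 0.22), Rgs5 (1.06 ± 0.15), Sox17 (1.25 ± 0.18) and Sema3g (1.32 ± 0.19), with adjusted p of 0.381 to 0.434 in that test.

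The right ventricle was then set against the left ventricle of the same embryos. In the left ventricle alone 2085 of 15579 genes passed (13.4%), 1001 higher (6.43%) and 1084 lower (6.96%). Among the 15386 genes that both fits tested, 1051 passed on the right and 2073 on the left. The 563 called on both were 53.6% of the right and 27.2% of the left calls, and 556 of them had the same sign. A test of the HLHS effect, right minus left, with the embryo as a block and a term for side in each litter, called 158 of 16209 genes (0.975%), 77 higher and 81 lower. Among the 1062 genes called in the right ventricle 49 passed it. The count rests on the term for side in each litter: without it 3 genes passed, and without control replicate 4, 36.

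Several genes had an effect that was higher on the right, among them members of the matrix lists such as Col9a1, Thbs3, Fbln2 and Fmod. Tmem26, Itih5, Antxr1, Sulf1, Nrk and Tppp were named for their small p in this test, not as members of a matrix list. Tmem26, a membrane protein gene, had 13.2, 14.2 and 7.87 CPM in HLHS right ventricles, against 3.95, 10.3, 5.72, 4.96 and 5.68 CPM in controls. Each HLHS library was above its littermates, and the groups as wholes overlapped. The right minus left effect was 2.31 ± 0.23 (adjusted p = 0.00488), from 0.95 ± 0.23 in the right and −1.30 ± 0.13 in the left ventricle. Col9a1 differed by 1.72 ± 0.28, with 1.80 ± 0.32 on the right and −0.01 ± 0.46 on the left. Itih5, which binds hyaluronan (1.30 ± 0.15), Antxr1, a collagen-binding receptor (1.21 ± 0.14), Thbs3 (1.14 ± 0.13), Sulf1, a heparan sulfatase (0.83 ± 0.10), and Nrk (0.68 ± 0.07) were positive, and so were Col3a1, Fbln2, Fmod, P4ha3 and Sox9. Tppp, which encodes a tubulin-binding protein, differed by 1.01 ± 0.10, with −0.19 ± 0.09 on the right, which did not pass, and −1.19 ± 0.11 on the left, which did. The energy genes Ckmt2 (1.15 ± 0.16) and Perm1 (0.46 ± 0.07) fell on both sides and by less on the right.

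Among genes with a lower effect on the right, Cnn1, smooth muscle calponin, differed by −1.22 ± 0.15 (0.39 ± 0.10 on the right, 1.60 ± 0.13 on the left), Prrx2 by −0.96 ± 0.09 (0.47 ± 0.09 and 1.44 ± 0.10), and Ankrd23, a stretch-responsive ankyrin repeat gene, by −0.94 ± 0.11 (−0.33 ± 0.12 and 0.63 ± 0.12). Hmox1 rose on both sides and by less on the right (−1.02 ± 0.18). For the Acta1 change no difference between the sides passed (−1.15 ± 0.42; adjusted p = 0.283), although its log2 change was −0.76 ± 0.10 on the right and 0.49 ± 0.38 on the left. Hspb7 and Irx1 differed by −0.45 ± 0.08 and −0.84 ± 0.14.

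**Figure D5:**
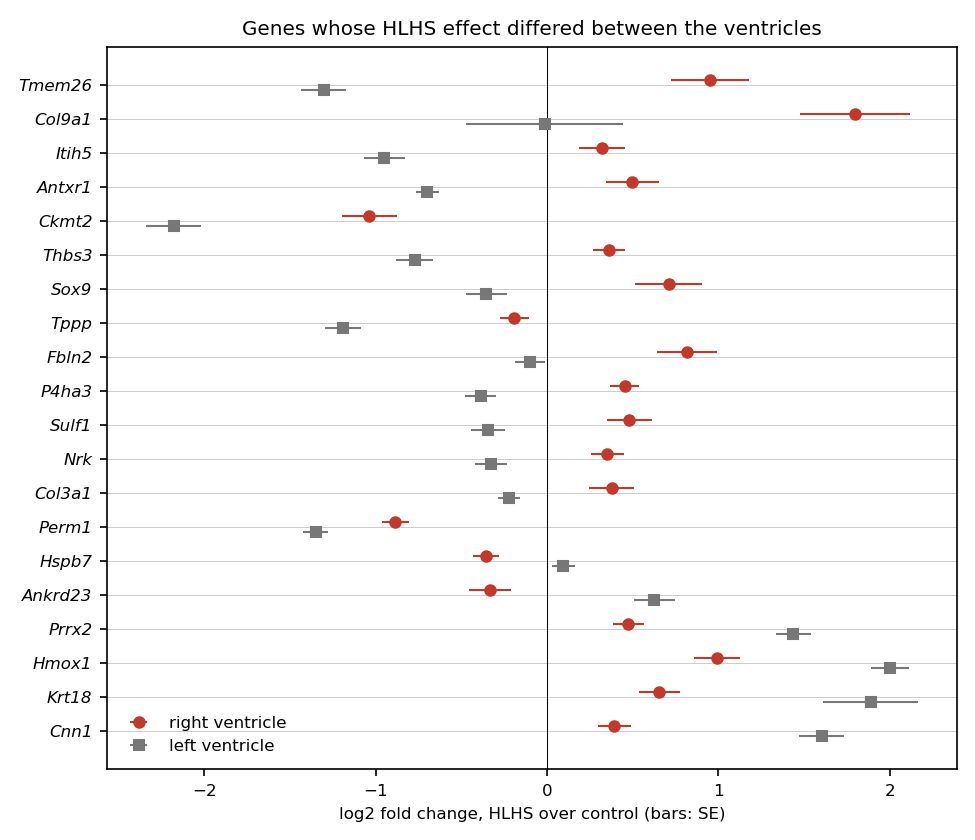
The x axis is the log2 fold change, HLHS over control, in the right ventricle (red circles) and the left ventricle (grey squares) of the same embryos, with standard errors as bars, for 20 genes that passed the test of the difference, ordered by its size. Tmem26, Itih5 and Antxr1 lie above 0 on the right and below 0 on the left, while Cnn1, Krt18, Hmox1 and Prrx2 lie above 0 on both sides and farther on the left.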

How the data were processed

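The deposited table, made by the authors, holds read counts per gene in whole numbers. The submitters' processing notes name the build mm9 and, with no order or role, HTSeq 0.5.4p5, TopHat2 2.0.9, edgeR 3.4.2 and Picard. Libraries were made with a TruSeq RNA v2 kit, per the labels' protocols. Neither strand use nor duplicate removal nor the annotation is given in the sources used here. Reads of antisense, overlapping or near-identical genes (actins, troponins, metallothioneins, mast cell proteases, the Xlr family) cannot be told apart. No coordinates of the files' build are given; promoter windows come from RefSeq on GRCm38.p6, matched by symbol.

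Gene IDs were given symbols for 86.6% of 37991 genes. The test was edgeR 4.0.16 in R 4.3.3 (TMM; filterByExpr, minimum count 10, minimum total 15; glmQLFit, glmQLFTest), with Benjamini-Hochberg adjustment over all genes tested and a threshold of 0.05. "Rose", "fell" and "called" mean past this threshold; ± is the standard error. HLHS was compared with control in 8 right ventricles with litter as a term; E17.5 and E14.5 effects by cell means of litter and phenotype; right and left effects with the embryo as a block, side in each litter and phenotype by side. Each embryo is 1 sample, so the replicate number pairs the ventricles of 1 animal, per the labels, and the litter pairs HLHS with control. Differences within a litter are of log2 CPM with a prior count of 2. Total counts were 17081273 to 27146143, which limits the precision of genes with few counts. Each pair of libraries of a group differed by more than sampling noise (lowest chi-square per degree of freedom 12.6).

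The members and the 62 gene lists were chosen with earlier results of these data known. Some genes are in more than 1 list, so the counts and medians of different lists are not independent of each other. The text names the 15 largest increases and decreases (average log2 CPM of at least 2, the same sign in all litters, no unnamed gene model), up to 5 called members of each list with at least 2, the smallest p of the other tests, and, whatever their values, 15 set genes; other called list members were named as well. A few called genes are counted in their lists but not reported here by name. Simulated data had 200 genes changed 2-fold, drawn only among genes of higher average level. For HLHS against control 100% were recovered, with 6.54% of calls false (15758 genes). For E17.5 minus E14.5 it was 76%, with 16.9% false (15758 genes), and for right minus left 98.5%, with 6.19% false (16209 genes). Many genes named here changed by less than 2-fold and some had lower levels, so these shares do not describe them. Alternatives were DESeq2 1.42.0 and its size factors, limma-voom (limma 3.58.1), other count filters, dropping the block, 1 fit of all 16 libraries, a term for sex, robust fitting, and leaving out each library or litter.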

Additional observations from a re-analysis of the deposited data

Results flagged for a closer look

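In 203 sets of control right ventricle values, 1 of the 5 controls stood apart from the others by Dixon's test for 8 genes; chance alone gives about 1 in 20. Control replicate 1 (E13.5) was low for Sulf1 (39.5 CPM, the others from 89.1 CPM), Sema3d (13.8 CPM, from 32.5 CPM), Edn1 (6.54 CPM, from 11.6 CPM) and Rbfox1 (7.02 CPM, from 9.92 CPM). Control replicate 2 (E14.5) was high for Tmem26 (10.3 CPM, the others up to 5.72 CPM), Sema3c (29.5 CPM, up to 24.5 CPM) and Bmp4 (13.8 CPM, up to 9.33 CPM). Control replicate 5 (E17.5) was high for Sfrp5 (4.32 CPM, up to 1.93 CPM).

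For 27 named genes the HLHS effect differed between the ventricles in edgeR's quasi-likelihood test of the difference (embryo as block), right minus left on the log2 scale. For 19 it was higher on the right: Tmem26 2.31, Col9a1 1.72, Itih5 1.30, Antxr1 1.21, Ckmt2 1.15, Thbs3 1.14, Sox9 1.09, Tppp 1.01, Fbln2 0.92, P4ha3 0.85, Sema3a 0.84, Sulf1 0.83, Fmod 0.81, Nrk 0.68, Myh6 0.66, Dusp6 0.60, Col3a1 0.60, Fndc5 0.50 and Perm1 0.46. For 8 it was lower on the right: Cnn1 −1.22, Krt18 −1.19, Hmox1 −1.02, Prrx2 −0.96, Ankrd23 −0.94, Irx1 −0.84, Srxn1 −0.69 and Hspb7 −0.45.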

How the results depend on the processing

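For HLHS against control in the right ventricle, where 1062 genes passed, the count was within 1.5 times of this with DESeq2 size factors (1057), DESeq2 (1333), limma-voom (1060), a filter of 1 CPM in 3 libraries (1045), robust fitting (1142) and without globin genes (1062). It was 1720 with no count filter, 1662 with all 16 libraries in 1 fit, 600 with a term for sex and 0 with no replicate block. It ranged from 190 to 1492 when 1 library was left out (193, 274 and 283 without HLHS replicates 1, 2 and 3; 190, 386 and 412 without control replicates 1, 3 and 5). It was 192, 608 and 202 without the litters of E13.5, E14.5 and E17.5. Leaving out libraries also leaves fewer samples.

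For E17.5 minus E14.5, where 0 passed, DESeq2 gave 10 and leaving out 1 control gave 1 to 230 (107, 230, 1 and 34 without control replicates 2, 3, 4 and 5). For right minus left, where 158 passed, the count was 24 with no replicate block, 3 with the replicate block and no term for side in each litter, 252 with DESeq2 and 36 to 262 when 1 embryo was left out (75 and 262 without HLHS replicates 1 and 3; 60, 85 and 36 without control replicates 1, 3 and 4). DESeq2 in these 2 tests and the fit without side in each litter were chosen after seeing the data. The cause of these moves was not tested.

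Signs turned for 4 named genes, none of which passed: Hand2 (0.022 without the E17.5 litter; −0.23 to 0.024 when 1 library was left out), Hand1 (0.12 with no replicate block, 7.33e-04 without the E17.5 litter; −0.19 to 0.025), Mki67 (−0.076 without the E17.5 litter; −0.075 to 0.20) and Nppb (−0.058 without the E13.5 litter; −0.058 to 0.35). Across all pairs of a named gene and an alternative in the right ventricle, 1248 kept the direction without passing, 26 passed where they had not, and 2956 stayed as reported. Genes near the count filter are limited by depth, and Tpsb2, Nodal, Sfrp5, Adrb3 and Myh3 rest on few counts.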

Other observations

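Some genes outside the lists, chosen after their values were seen, stood out in 1 library. The interferon-stimulated genes Gbp3, Rtp4 and Ifi44 were high in the E14.5 HLHS right ventricle relative to its littermates. Gbp3 had 1.51, 8.26 and 6.74 CPM in HLHS right ventricles, against 2.65, 2.36, 2.11, 8.03 and 6.66 CPM in controls. Rtp4 had 1.46, 13.2 and 6.93 CPM in HLHS right ventricles, against 2.24, 2.20, 2.43, 8.50 and 5.49 CPM in controls. Ifi44 had 0.431, 5.81 and 2.77 CPM in HLHS right ventricles, against 0.295, 0.38, 0.568, 3.19 and 1.92 CPM in controls. At E17.5 the HLHS library lay within the range of its 2 controls for all 3, and at E13.5 it was below its control for Gbp3 and Rtp4 and above it for Ifi44. In edgeR's quasi-likelihood test of the 8 right ventricles none of the 3 passed (adjusted p = 0.389 for Gbp3, 0.227 for Rtp4 and 0.11 for Ifi44).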
